A study of Mus musculus with 3 samples.

Results

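Ribosome biogenesis genes are described here in mouse bone marrow progenitors, as 38 genes named by symbol out of 32285 in the files. The list was set by function, but with earlier results of these data known, and all 38 genes were found. Messenger RNA was counted in single cells by a droplet method that tags the 3' end of each molecule with a unique molecular identifier (UMI), so UMIs count molecules and are not scaled by gene length. The 3 libraries came from 8-week-old mice, 1 for each of 3 genotypes, and no label ties a library to more than 1 animal. The control library was Rit1M90I/+Mx1Cre-, which carries the Rit1 M90I allele without the recombinase, and the same label also names it wild type. The second library was Lztr1fl/fl;Mx1Cre+, in which the recombinase deletes Lztr1, an adaptor that directs the small GTPase RIT1 to degradation. The third was Rit1M90I/+;Mx1Cre+, which expresses the variant RIT1. Every mouse received 3 doses of polyinosinic-polycytidylic acid (pIpC) at 12 mg/kg on alternate days, and marrow was taken 4 weeks later. This agent turns on Mx1-Cre through interferon, in blood cells and in other interferon-responsive tissues. Live cells without the surface markers CD3, CD11b, Gr1, B220 and Ter119 were sorted. Both mutants carried Mx1-Cre and the control did not, so genotype and recombinase cannot be told apart in these libraries.

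Ribosome biogenesis is the assembly of ribosomes in the nucleolus. RNA polymerase I copies the ribosomal DNA into a long precursor, small nucleolar ribonucleoproteins (snoRNPs) modify it, and large sets of assembly factors fold and cleave it into the small and large subunits. The pathway is a classical target of the transcription factor MYC, which binds E-box sequences, and in marrow it is known for the anaemia that follows when ribosome production fails in red cell precursors. By role, the 38 genes were 2 subunits of RNA polymerase I, 11 factors of small subunit maturation, 10 of large subunit maturation, 4 proteins of box C/D snoRNPs (which guide ribose methylation), 4 of box H/ACA snoRNPs (which guide pseudouridylation) and 7 nucleolar proteins with several functions.

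Promoters were searched for motifs because the genes are known as MYC targets. RefSeq start windows (GRCm38.p6, 250 bases before and 50 bases after a start) were matched for 33 of the 38 genes, as 37 windows. The E-box CACGTG, which reads the same on both strands, lay in 7 of the 37 windows (18.9%) and in 7.15% of all 32851 windows. In 6 of the 37 (16.2%) it began within the 50 bases after the start, against 1.08% of all windows, and in 1 of the 37 (2.70%) before the start, against 6.21%. This split by side was added after the positions were seen. The sites are shown so that the E-boxes and their flanks can be compared, with 30 bases each, read 5' to 3' on the strand of the gene, the E-box in capitals and the position of its first base given from the start:
Nop2, chr6:125131811-125131840 (+), 60 bases before the start: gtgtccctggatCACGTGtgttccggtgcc
Pes1, chr11:3963965-3963994 (+), base 3 after the start: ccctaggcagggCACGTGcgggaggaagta
Wdr43, chr17:71616220-71616249 (+), base 18 after the start: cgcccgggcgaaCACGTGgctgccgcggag
Tsr1, chr11:74898092-74898121 (+), base 25 after the start: tcacttggtgcaCACGTGgactgcagaatg
Ltv1, chr10:13193092-13193121 (-), base 29 after the start: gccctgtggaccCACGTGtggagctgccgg
Utp20, chr10:88826765-88826794 (-), base 38 after the start: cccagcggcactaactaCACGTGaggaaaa
Mybbp1a, chr11:72441347-72441376 (+), base 41 after the start: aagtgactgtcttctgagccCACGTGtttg
The flanks differed between the genes, and 4 of the 7 genes act in small subunit maturation (Wdr43, Tsr1, Ltv1 and Utp20). The members' windows had a median GC content of 58%, against 52.7% over all windows. The members are protein coding, and over windows of protein-coding genes the median GC content was 56.3% and the E-box share 7.84%. The part of base composition in these shares was not tested. The CCAAT box (CCAAT, either strand) lay in 29.7% of the members' windows and 37.4% of all windows, and TATAAA (either strand) in 8.11% and 13.6%. The NRF1 motif lay in none of the 37 windows and in 0.971% of all. A match is a stretch of letters and no measurement of binding, and no binding data were used here.

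The files held 8476, 3014 and 11573 barcodes for the control, Lztr1 knockout and Rit1-M90I libraries, of which 7262, 2338 and 9351 were kept, with medians of 6584 to 9923 UMIs per cell. Across libraries, 17 kept barcodes were shared. Lztr1 itself gave 17.3 CPM (its UMIs per 1000000 UMIs of the library) in the control. In the Lztr1 knockout library it gave 6.34 and in the Rit1-M90I library 15.2 CPM, so the knockout library was lowest, as labelled. Cells were placed in populations by scores of marker genes, and the 10 populations with at least 50 cells in each library held 72.5%, 73.3% and 69.8% of the kept cells. Such a population is a range of a score, so it is called "-like", and 7.46% to 8.02% of the kept cells lay within 0.05 of a boundary. Each of the 10 populations had at least 3 of its own markers among its 10 leading genes. The gate used these same markers, so this count is no independent check of what the cells were. T cell-like cells carried Cd3d, Cd3e and Cd3g although the sort was against CD3.

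Ribosome biogenesis genes stood highest in erythroid progenitor-like cells and lowest in basophil and mast-like cells. The median of the 38 genes in erythroid progenitor-like cells was 109, 109.99 and 101 CPM in the control, Lztr1 knockout and Rit1-M90I libraries. In basophil and mast-like cells it was 30.7, 34.8 and 30.1 CPM in the same order, which is the order of libraries used throughout. The 2 populations did not overlap. Counted per cell, the 38 genes together gave 216 ± 30.8 UMIs (SD, n = 3 libraries) in erythroid progenitor-like cells and 9.22 ± 1.71 in basophil and mast-like cells. Depth moved with this gap, since the median was 16589.5 to 21204 UMIs per cell in the first population and 2552 to 3194.5 in the second.

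The other populations lay between these ends. Neutrophil progenitor-like cells had 77.1 ± 5.55 CPM (SD, n = 3 libraries) and stem and multipotent-like cells 74.7 ± 11.97, and these neighbours overlapped (71.8 to 82.9 and 64.5 to 87.9 CPM). Monocyte lineage-like (63.1 ± 4.34), hemoglobin-rich erythroblast-like (59.8 ± 6.06) and lymphoid progenitor-like cells (59.7 ± 4.23) overlapped one another. T cell-like cells had 47.2 ± 8.04 CPM and NK and innate lymphoid-like cells 45.6 ± 2.77, again overlapping, and the highest T cell-like library also reached the lymphoid progenitor-like range. Plasmacytoid dendritic-like cells had 38.97 ± 0.628 CPM, with each library below every other population except the basophil and mast-like cells. Myc was highest in stem and multipotent-like cells, at 209, 187 and 161 CPM, with 153, 169.7 and 150.5 in erythroid progenitor-like cells. In hemoglobin-rich erythroblast-like cells Myc was at 36.7, 42.6 and 43.9 CPM, so its order over these 3 populations was not that of the list.

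**Figure D1:**
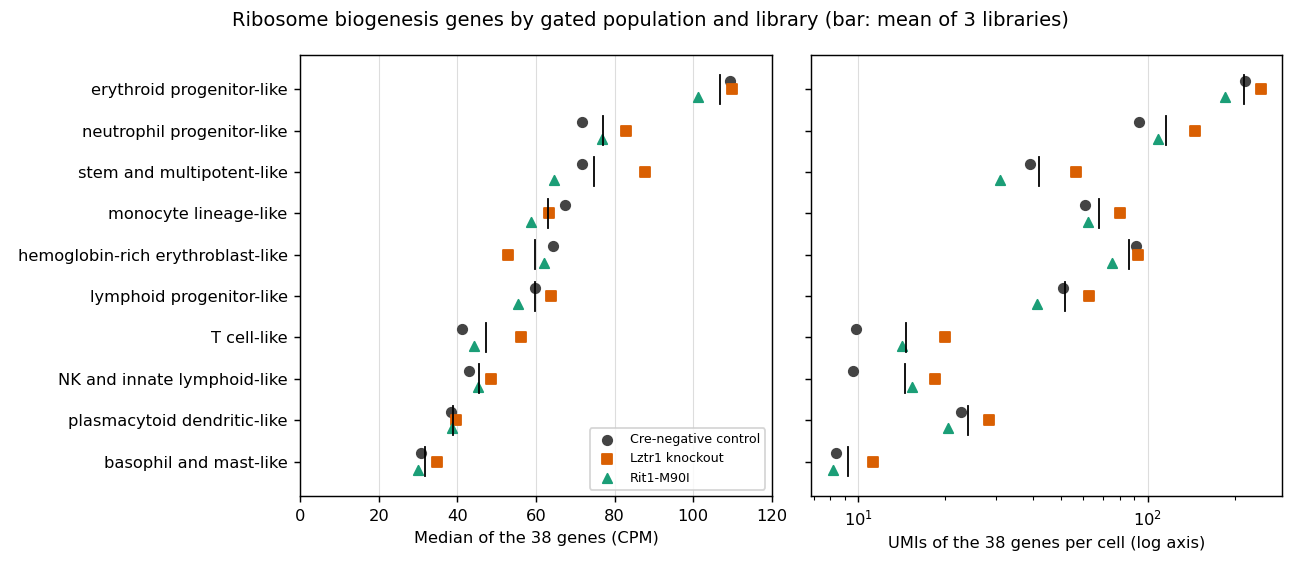
Left, the median CPM of the 38 genes in each gated population (vertical axis) for each of the 3 libraries (points), with their mean (bar); right, UMIs of the 38 genes per cell on a log axis. Erythroid progenitor-like cells lie to the right of all others at 101 to 109.99 CPM, and basophil and mast-like cells lie lowest at 30.1 to 34.8 CPM.

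The genes moved together across populations. The highest mean level fell in erythroid progenitor-like cells for 37 of the 38 genes, the exception being Nop10, and the lowest in basophil and mast-like cells for 34. As a description over the 30 library and population sums, which share libraries, depth and gates, each gene's log2(CPM + 10) was correlated with the median of the other members. The Pearson correlation had a median of 0.87, from 0.54 for Bop1 to 0.97 for Npm1, while over all 6223 genes of at least 20 CPM the median correlation with the list was -0.03. Bop1, which forms a complex with Pes1 and Wdr12 in large subunit assembly, Rrp9 (0.65), a protein of the U3 snoRNP, and Bysl (0.65), a small subunit factor, followed the list least closely. Outside the list, the genes with the highest correlation were Cmss1 (0.95), Nsun2 (0.94), an RNA cytosine methyltransferase, Ppa1 (0.94), an inorganic pyrophosphatase, Rsl1d1 (0.94), a nucleolar protein, and Slc19a1 (0.94), the reduced folate carrier.

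Each population was then tested against the mean of the other 9 with edgeR's quasi-likelihood test on summed UMIs, with the library as a block and Benjamini-Hochberg adjustment over 11269 genes. The 3 libraries served as replicates although they are of 3 genotypes. The p-values thus measure how population differences varied between these libraries, which includes genotype differences. In erythroid progenitor-like cells all 38 genes were higher at an edgeR adjusted p under 0.05, where 40.9% of all genes tested were higher and 34.5% lower. Their median log2 fold change was 1.27, against 0.03 over all genes, and each of the 38 lay on the same side in 3 of 3 libraries. In basophil and mast-like cells all 38 were lower, where 31.0% of all genes were lower and 35.7% higher, with a median log2 fold change of -1.17 against 0.01, again in 3 of 3 libraries.

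The leading members of each role showed the size of this gap. Npm1, nucleophosmin, a histone and ribosome chaperone (chr11:33152287-33163206, GRCm38), had 3469, 3317 and 3246 CPM in erythroid progenitor-like cells and 705, 757 and 737 in basophil and mast-like cells. Ncl, nucleolin (chr1:86344719-86359400), had 2387, 2446 and 2243 CPM in the first population and 424, 523 and 454 in the second. For both genes no library of the first population came near the second. Processed copies of Npm1 exist in the genome, so its level carries the uncertainty of how reads were shared between copies.

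Among the enzymes and core proteins that act on the precursor, Polr1a, the largest subunit of RNA polymerase I, had 57.7, 66.7 and 55.6 CPM in erythroid progenitor-like cells and 11.1, 12.04 and 11.4 in basophil and mast-like cells. Fbl, the methyltransferase fibrillarin of box C/D snoRNPs, had 402, 374 and 354 CPM in the first population and 80.7, 76.5 and 71.7 in the second, and Nop58, a core protein of the same particles, 388, 434 and 393 CPM in the first population and 78.8, 94.6 and 80.99 in the second. None of these ranges overlapped. Of the assembly factors, Wdr43 of the small subunit had 207, 244 and 227 CPM in the first population and 45.2, 49.9 and 51.1 in the second, and Nop14, also of the small subunit, 96.2, 98.5 and 95.8 CPM in the first population and 33.3, 23.2 and 35.2 in the second. Ddx18, an RNA helicase of the large subunit, had 195, 203 and 189 CPM in the first population and 69.1, 61.1 and 58.4 in the second, and Wdr12 185, 185 and 187 CPM in the first population and 38.005, 41.3 and 33.9 in the second. These 4 genes were likewise higher in each erythroid progenitor-like library than in any basophil and mast-like library.

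In erythroid progenitor-like cells the 38 log2 fold changes ran from 0.89 to 1.69. Polr1b, the other polymerase I subunit of the list (chr2:129100995-129126594), had 54.1, 54.6 and 46.1 CPM and a log2 fold change of 1.69 ± 0.08 SE, edgeR adjusted p = 7.57e-31. Nolc1, a chaperone of snoRNPs (chr19:46075863-46085530), had 279, 280.1 and 248 CPM and a log2 fold change of 1.67 ± 0.06 SE, edgeR adjusted p = 7.67e-29. At the lower end were Nob1, the endonuclease that makes the last cleavage of small subunit RNA, at 66.8, 67.6 and 67.03 CPM (0.89 ± 0.07 SE), and Bop1, at 60.6, 56.4 and 52.98 CPM (0.94 ± 0.07 SE). All 4 genes gave higher CPM in each erythroid progenitor-like library than in any stem and multipotent-like library, where Nob1 came to 57.6 to 59.8 CPM.

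In basophil and mast-like cells the deepest falls were those of Rrp1b, a large subunit factor, at 10.8, 15.5 and 9.02 CPM (log2 fold change -1.77 ± 0.15 SE, edgeR adjusted p = 2.66e-18), and Nolc1, at 32.7, 43.9 and 29.9 CPM (-1.73 ± 0.11 SE, edgeR adjusted p = 1.79e-19). The smallest were those of Rrp9, at 22.5, 25.8 and 16.5 CPM (-0.39 ± 0.12 SE, edgeR adjusted p = 0.00328), and Nop14 (-0.64). Rrp9 was also at 20.04, 19.2 and 15.7 CPM in hemoglobin-rich erythroblast-like cells, so the 2 populations overlapped for this gene.

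**Figure D2:**
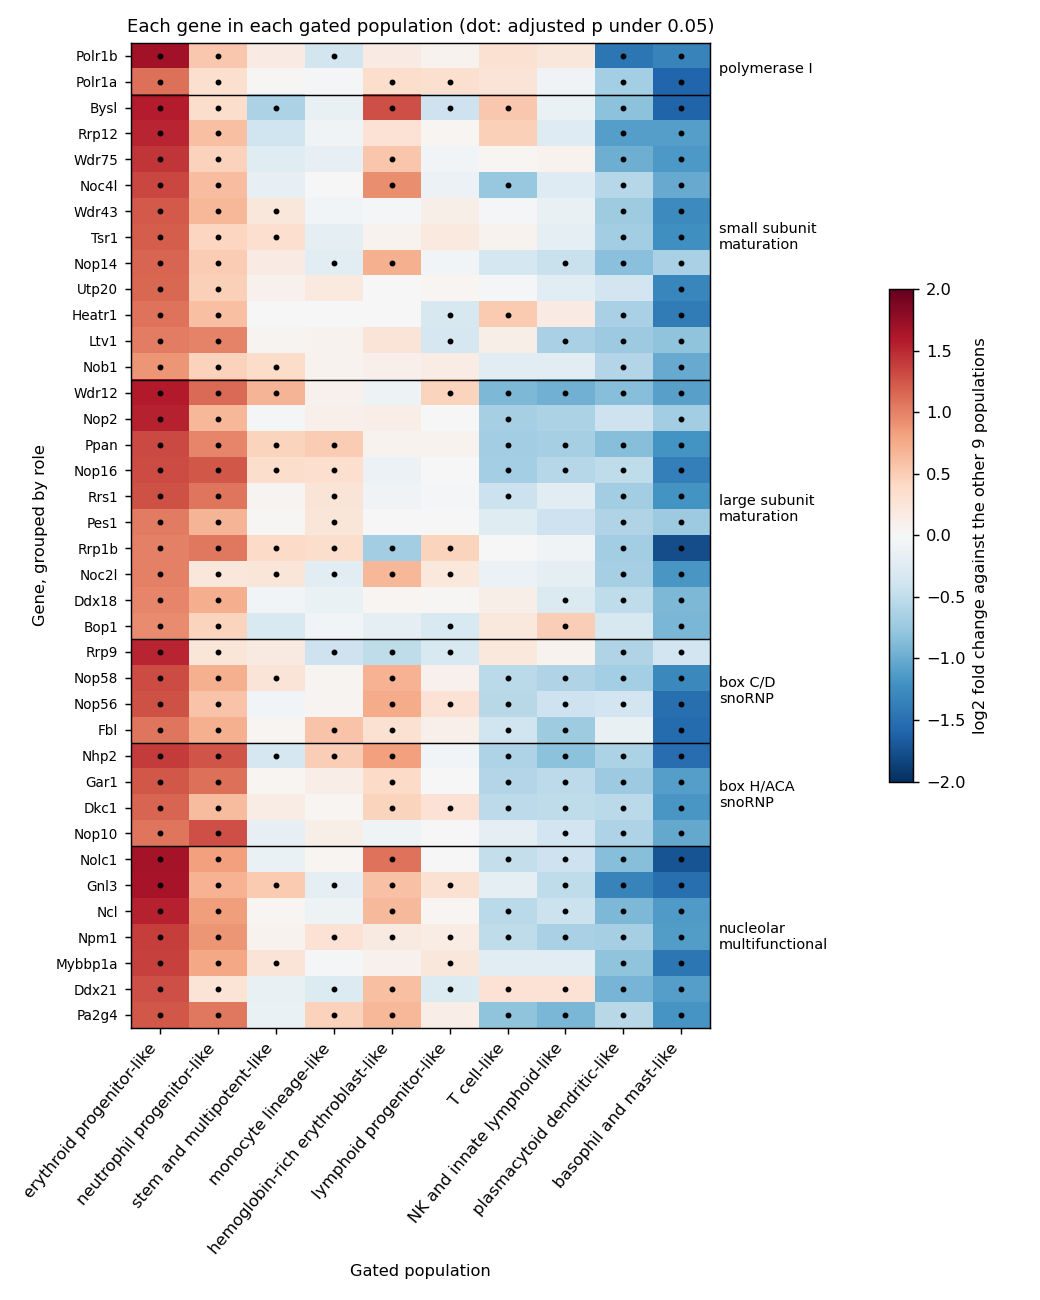
log2 fold change (colour) of each of the 38 genes (vertical axis, grouped by role) in each of the 10 gated populations against the other 9 (horizontal axis), with a dot where the edgeR adjusted p was under 0.05. The erythroid progenitor-like and neutrophil progenitor-like columns are above 0 throughout, and the basophil and mast-like column is below 0 throughout, from -0.39 for Rrp9 to -1.77 for Rrp1b.

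Neutrophil progenitor-like cells were the other population in which all 38 genes were higher, where 38.2% of all genes tested were higher and 31.3% lower. The median log2 fold change was 0.67. By role, the median was 1.18 for the 4 box H/ACA genes, 0.86 for large subunit maturation, 0.82 for the multifunctional group, 0.63 for box C/D, 0.51 for small subunit maturation and 0.43 for RNA polymerase I. Differences between roles were not tested.

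Nop10, a core protein of box H/ACA snoRNPs (chr2:112261926-112263269), had 633, 637 and 639 CPM in neutrophil progenitor-like cells and 651, 599.9 and 588 in erythroid progenitor-like cells. The levels of Nop10 in these 2 populations overlapped, while every other population stood at 398 CPM or less. Its log2 fold change in neutrophil progenitor-like cells was 1.29 ± 0.06 SE, edgeR adjusted p = 5.65e-27. Nhp2, its partner in the same particle (chr11:51619735-51623714), had 289, 309 and 322 CPM (1.25 ± 0.06 SE, edgeR adjusted p = 1.15e-25). At the other end were Noc2l, a large subunit factor, at 75.9, 96.3 and 77.6 CPM (0.23 ± 0.06 SE), and Rrp9, at 24.9, 30.99 and 24.1 CPM (0.24 ± 0.08 SE). On the log2 CPM scale these 2 lay above the mean of the other populations in 1 of 3 libraries only. By the same measure, 31 of the 38 genes lay above that mean in 3 of 3.

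The fold changes above were scaled by the trimmed mean of M values (TMM), which centres on the bulk of genes. The neutrophil result moved with that choice. Without it the median of all genes went from 0.03 to -0.24, 31 of the 38 genes were higher and none lower with a median of 0.40, and Noc2l and Rrp9 turned to -0.038 and -0.036. The share of higher among all called genes went from 55.02% to 34.97%. Against stem and multipotent-like cells alone, 31 of the 38 genes were higher in neutrophil progenitor-like cells (30.0% of all genes were higher and 30.7% lower), with a median of 0.59, led by Nhp2 (1.42) and Nop10 (1.30) and with Rrp9 (0.06) and Noc2l (-0.02) lowest. By CPM without TMM, 14 of the 31 were higher in 3 of 3 libraries, 12 in 2 and 5 in 1. In the fit without TMM 12 were higher and 5 lower there, with a median of 0.16 while the median of all genes was -0.46, and the share of higher among all calls went from 49.4% to 23.2%.

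The red cell lineage was compared across 3 of the populations, and their order as stages was not tested. Erythroid progenitor markers summed to 7534, 7587 and 8003 CPM in erythroid progenitor-like cells. In hemoglobin-rich erythroblast-like cells they came to 7940, 8424 and 8997 CPM, so they did not set these 2 populations apart. Markers of hemoglobin-rich erythroblasts summed to 200, 231 and 252 CPM in the first and 7037, 10594 and 9793 CPM in the second. From stem and multipotent-like to erythroid progenitor-like cells all 38 genes were higher (33.5% of all genes were higher and 35.0% lower), with a median log2 fold change of 1.002. Without TMM 37 were higher and none lower with a median of 0.73, and the share of higher among all calls went from 48.9% to 34.6%. Bysl (1.98) and Rrp12 (1.73) rose most, and Rrp1b (0.57) and Nob1 (0.46) least.

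From erythroid progenitor-like to hemoglobin-rich erythroblast-like cells, 37 of the 38 were lower (24.7% of all genes were lower and 20.2% higher), with a median of -0.89. The gene that did not pass was Bysl, which had 12.9, 23.5 and 13.9 CPM in stem and multipotent-like, 53.8, 51.2 and 41.7 in erythroid progenitor-like and 47.6, 36.4 and 37.9 in hemoglobin-rich erythroblast-like cells (log2 fold change of the last step -0.25 ± 0.13 SE, edgeR adjusted p = 0.105). Its last 2 ranges thus stood above the first, without a called difference between them. Rrp9 (chr9:106475963-106485424) fell most, from 61.7 to 67.2 CPM to 15.7 to 20.04 (-1.83 ± 0.15 SE, edgeR adjusted p = 8.97e-18), followed by Rrp1b (-1.54), and Noc2l fell least (-0.30).

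Against the other 9 populations, hemoglobin-rich erythroblast-like cells had 18 of the 38 genes higher (32.7% of all genes) and 2 lower (35.0%), with a median log2 fold change of 0.22. The highest were Bysl (1.29 ± 0.14 SE, edgeR adjusted p = 2.37e-13) and Nolc1 (1.08), and the 2 that were lower were Rrp1b (-0.70) and Rrp9 (-0.51). By role the median was 0.60 in the multifunctional group, 0.50 in box C/D and -0.04 in large subunit maturation. Globin genes made up 0.598% to 0.930% of the UMIs of these cells, and the list's median outside globin was 53.4 to 64.7 CPM against 52.9 to 64.3 with it.

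**Figure D3:**
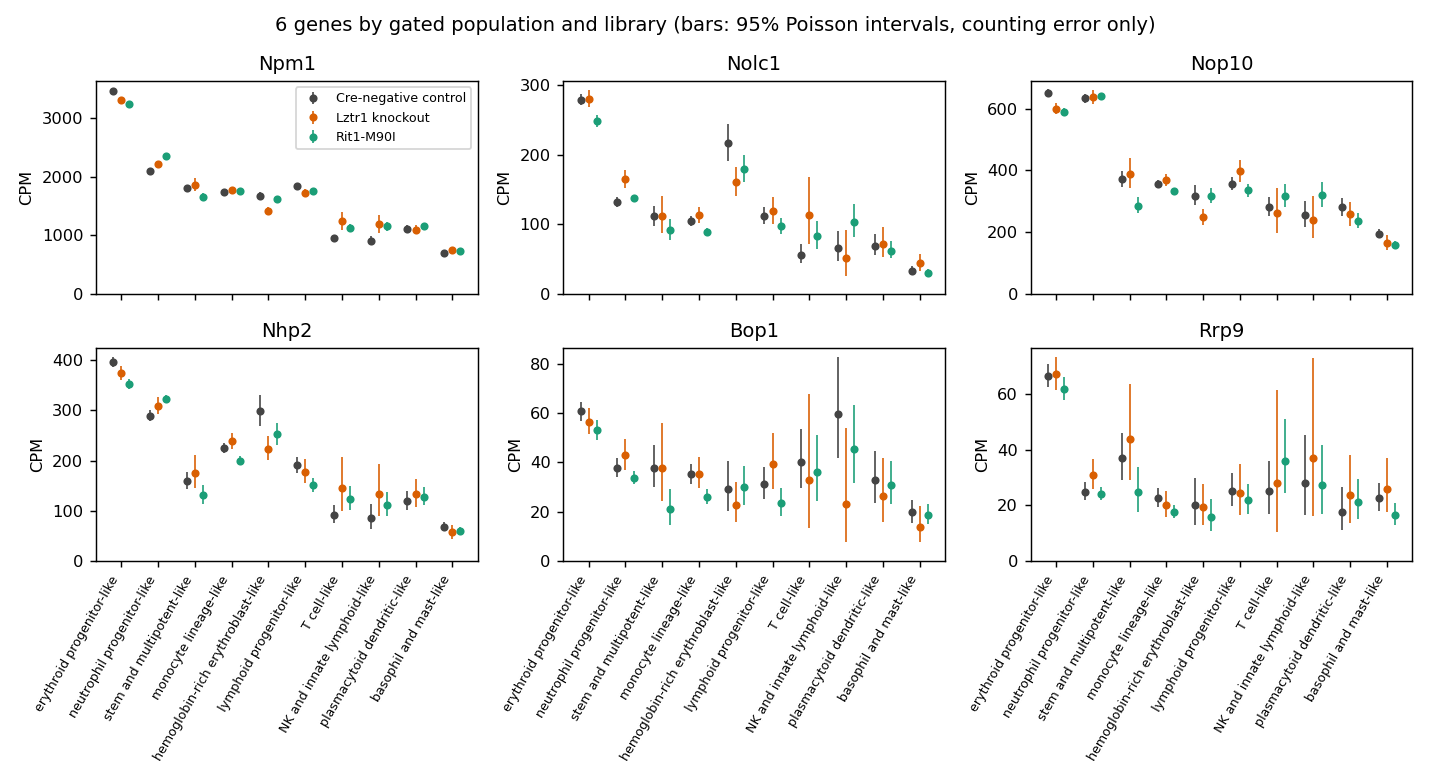
CPM of 6 genes (vertical axes, from 0) in the 10 gated populations (horizontal axes) for each library (points), with 95% Poisson intervals that cover counting error only. Npm1 and Nolc1 are highest in erythroid progenitor-like cells, Nop10 is at 633 to 639 CPM in neutrophil progenitor-like cells, and Bop1 and Rrp9 have wide intervals in the small T cell-like and NK and innate lymphoid-like groups.

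Stem and multipotent-like, lymphoid progenitor-like and monocyte lineage-like cells had genes on both sides. In stem and multipotent-like cells 11 of the 38 were higher (25.4% of all genes) and 2 lower (19.2%), with a median log2 fold change of 0.05. Without TMM 18 were higher and none lower with a median of 0.25, the median of all genes went to 0.24, and the share of higher among all calls went from 57.0% to 79.6%. Wdr12 (139.6, 121 and 116 CPM; 0.67 ± 0.09 SE, edgeR adjusted p = 6.28e-10) and Gnl3, the nucleolar GTPase nucleostemin (215, 308 and 195 CPM; 0.52 ± 0.08 SE, edgeR adjusted p = 2.42e-08), were highest. Bysl was lowest (-0.63), followed by Rrp12 at -0.40, which did not pass, and the other gene that was lower was Nhp2 (-0.33). These counts were loose: 6 were higher without the control library, 5 higher and 6 lower without the Lztr1 knockout library, none lower without the Rit1-M90I library, and 6 higher and 5 lower, with a median of -0.03, when called doublets were kept.

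In lymphoid progenitor-like cells 9 were higher (25.2% of all genes) and 6 lower (19.3%), with a median of 0.04, from Rrp1b (0.45) and Wdr12 (0.44) to Ltv1 (-0.33) and Bysl (-0.41). Without TMM 15 were higher and none lower, and the share of higher among all calls went from 56.6% to 72.5%. The lower count was 3, 3 and 1 without the control, Lztr1 knockout and Rit1-M90I library, and 12 with Leiden clusters. In monocyte lineage-like cells 9 were higher (33.1%) and 6 lower (26.4%), with a median of 0.04. They ran from Fbl (305, 291 and 265 CPM; 0.57) and Ppan, a large subunit factor (0.50), to Polr1b (-0.37) and Rrp9 (-0.42). With Leiden clusters in place of the gate, 28 were higher and none lower with a median of 0.40. Without the control library 6 were higher and 9 lower, with a median of -0.05, and the lower count was 3 without the Lztr1 knockout and 2 without the Rit1-M90I library. The side of this population thus changed with how its cells were chosen and with the library left out.

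Plasmacytoid dendritic-like cells had none of the 38 genes higher (22.9% of all genes were) and 34 lower (17.7%), each of these in 3 of 3 libraries, with a median log2 fold change of -0.68. Without TMM 32 were lower, and the share of higher among all calls went from 56.4% to 78.0%. Polr1b was at 9.63, 7.35 and 8.28 CPM (-1.44 ± 0.23 SE, edgeR adjusted p = 3.64e-07) and Gnl3 at 64.97, 83.8 and 69.8 CPM (-1.34 ± 0.10 SE, edgeR adjusted p = 2.24e-19). The 4 genes that did not pass were Fbl (209, 232 and 199 CPM; -0.15), Bop1 (-0.32), Utp20 (-0.38) and Nop2 (-0.41).

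T cell-like cells had 3 genes higher (23.8% of all genes) and 16 lower (24.0%), with a median of -0.22. The 3 were Bysl (0.54), Heatr1, of the small subunit processome (0.53), and Ddx21, an RNA helicase (0.28). The lowest were Wdr12 (-0.89) and Pa2g4, a growth-regulated nucleolar protein (-0.80). Without the control library 7 were lower, and without the Rit1-M90I library none was higher. NK and innate lymphoid-like cells had Bop1 (0.49) and Ddx21 (0.29) higher (20.2% of all genes were) and 18 genes lower (19.4%), the lowest being Wdr12 (-0.96) and Pa2g4 (-0.91). Bop1 was at 59.6, 23.1 and 45.3 CPM there, so its Lztr1 knockout value lay below the other libraries. Neither Bop1 nor Ddx21 was called higher without the control or without the Rit1-M90I library. T cell-like and NK and innate lymphoid-like cells were few in the Lztr1 knockout library, at 53 and 51 cells, and Nop2 had no UMI in its NK and innate lymphoid-like cells, which allows up to 13.9 CPM at 3 counts.

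Beside the 38 genes, 116 other assembly factors, nucleases and polymerase subunits of the pathway were tested in the same fit. In erythroid progenitor-like cells 107 were higher and 2 lower, with a median log2 fold change of 0.81. In neutrophil progenitor-like cells 91 were higher and 6 lower (0.39). In basophil and mast-like cells 7 were higher and 96 lower (-0.59), and in plasmacytoid dendritic-like cells 3 were higher and 60 lower (-0.35). Each of these 4 medians had the sign of the 38 genes' median and lay nearer 0. In lymphoid progenitor-like and monocyte lineage-like cells the medians were -0.05 and -0.01, on the other side of 0 from the list's 0.04. In stem and multipotent-like cells 11 were higher and 21 lower (0.01), where 11 and 2 of the 38 genes were. In hemoglobin-rich erythroblast-like, T cell-like and NK and innate lymphoid-like cells the medians (0.19, -0.13 and -0.17) had the list's sign. The shares over all genes were those given above for each population.

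Because growth and division go together, cells were also split by 20 genes of S phase and of G2 and M phase, none of them a member, with a cell called cycling at 10 or more such UMIs per 10000. Only basophil and mast-like and erythroid progenitor-like cells held at least 50 cells of each state in every library, and 6.74% and 3.25% of their cells lay within 1 UMI per 10000 of the threshold. In erythroid progenitor-like cells the median of the 38 genes was 110.5, 113 and 103 CPM in cycling cells and 95.2, 90.5 and 90.3 in non-cycling cells, with no overlap. In basophil and mast-like cells it was 29.1, 34.5 and 28.03 CPM in cycling and 28.2, 31.8 and 31.7 in non-cycling cells, which overlapped. Depth moved with the state: the median was 18781.5 to 23422 UMIs per cell in cycling and 6313 to 8173.5 in non-cycling erythroid progenitor-like cells. In basophil and mast-like cells it was 3618 to 5257 in cycling and 2245 to 2691 in non-cycling cells. The call of the state thus rested on fewer UMIs in basophil and mast-like cells.

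Over both populations, 20 of the 38 genes were higher in cycling cells and none lower in edgeR's test with library and population as blocks, with a median log2 fold change of 0.39 (21.5% of the 9159 genes tested were higher and 15.9% lower). A further fit left out cells under 5000 UMIs and thinned the others to 5000 before the state was called. This changed the cells as well as the call, since basophil and mast-like cells had medians of 2552 to 3194.5 UMIs. In that fit 6 were higher and 1 lower. Of all 7587 genes tested there, 1186 were higher and 1070 lower, so the list's share of higher genes was near that of all genes. Without the control, Lztr1 knockout or Rit1-M90I library 6, 12 and 13 were higher, where 1074 of 9070, 1262 of 9544 and 1208 of 8717 genes were. Within erythroid progenitor-like cells alone, 36 of the 38 were higher and none lower, with a median of 0.47 (27.3% of 9923 genes were higher and 27.7% lower). The 2 others were Nob1 (-0.17) and Wdr12 (-0.15). Noc4l, of small subunit maturation, differed most (1.52 ± 0.17 SE, edgeR adjusted p = 4.02e-10), followed by Nhp2 (1.13).

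Within basophil and mast-like cells alone, 8 were higher and 1 lower, with a median of 0.20 (15.7% of 9195 genes were higher and 13.3% lower). The 8 were Nop56 (0.78) and Nop58 (0.59) of box C/D snoRNPs, Nop10 (0.67), Nhp2 (0.53) and Dkc1 (0.40), the pseudouridine synthase, of box H/ACA snoRNPs, and Pa2g4 (0.68), Ltv1 (0.65) and Ncl (0.28). Npm1 was lower (-0.22 ± 0.07 SE, edgeR adjusted p = 0.00876). The difference between the 2 populations was tested as an interaction: 10 of the 38 genes had a higher cycling difference in erythroid progenitor-like cells and none a lower one (12.0% of 9159 genes higher and 14.2% lower). They were Noc4l (1.41), Rrp9 (0.96), Nop14 (0.93), Npm1 (0.82), Nolc1 (0.79), Bop1 (0.72), Mybbp1a (0.70), Nhp2 (0.65), Ncl (0.62) and Ppan (0.60), in log2 units. The interaction was not fitted on thinned cells, and the part of depth in it was not tested.

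UMIs were also summed over erythroid progenitor-like and basophil and mast-like cells together, by library and state. In these sums all 38 were higher in cycling cells, with a median log2 fold change of 1.30 (37.2% of 10819 genes were higher and 36.7% lower). The makeup of the 2 states differs in such sums, since erythroid progenitor-like cells were 81.9% to 83.5% cycling and basophil and mast-like cells 30.3% to 36.8%.

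**Figure D4:**
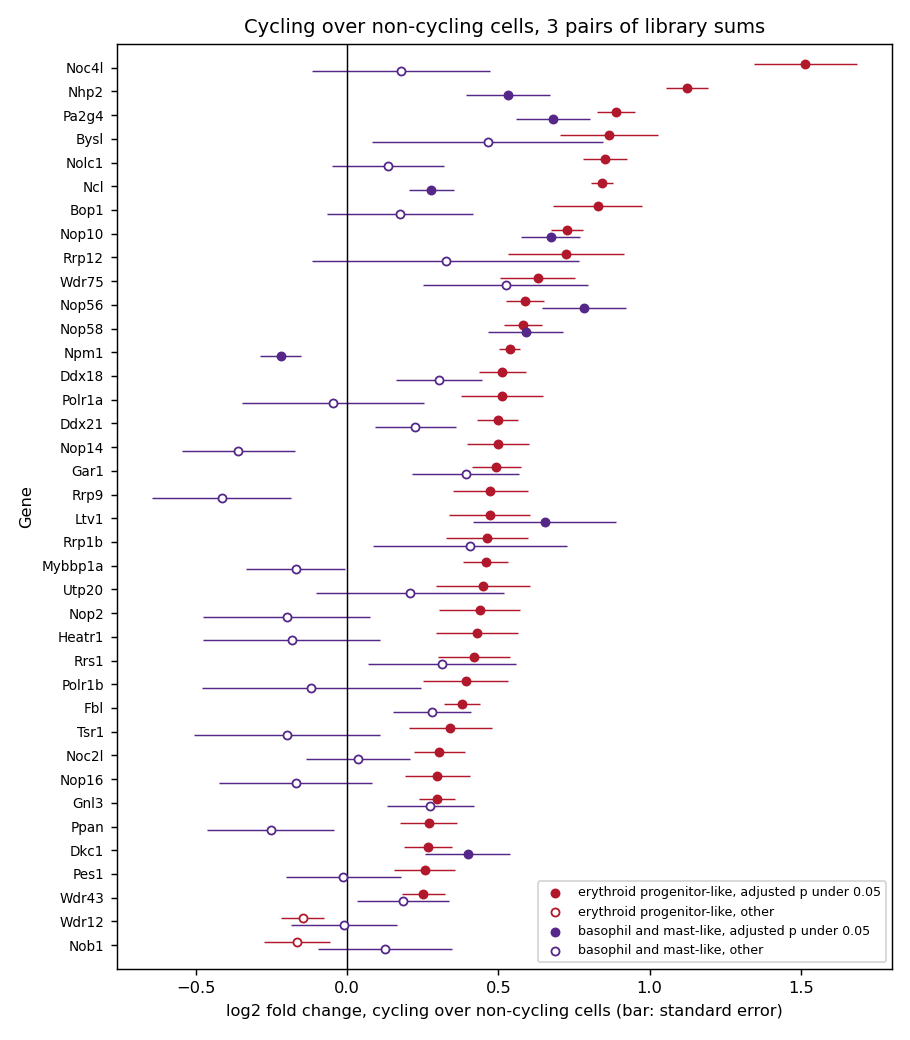
log2 fold change of cycling over non-cycling cells (horizontal axis; bars are standard errors) for each of the 38 genes (vertical axis) in erythroid progenitor-like and basophil and mast-like cells; filled points had an edgeR adjusted p under 0.05. In erythroid progenitor-like cells 36 points are filled and lie right of 0, and in basophil and mast-like cells 9 are filled, of which Npm1 lies left of 0.

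The study's own comparison is between genotypes, and with 1 library each it has no replicate check and no test. Ratios are on the log2(CPM + 10) scale for genes with a mean of at least 20 CPM, which understates changes of low genes, intervals cover counting error only, and both mutants are set against the same control library. Over all kept cells the median of the 38 genes was 73.6, 76.9 and 67.1 CPM. Of the 37 genes that passed the filter (Rrp12 did not), 35 of 37 lay above 0 in the Lztr1 knockout, where 55.9% of all 5895 genes did, with a median log2 ratio of 0.09 against 0.02 over all genes. In the Rit1-M90I library 1 of 37 lay above 0, where 31.7% of all genes did, with a median of -0.15 against -0.05. None of the 37 was 1.5-fold higher or lower in either mutant (0.221% of all genes were higher and 0.322% lower for the Lztr1 knockout, and 0.288% and 0.221% in Rit1-M90I).

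The highest ratios in the Lztr1 knockout were those of Ddx21 (163 to 200.1 CPM, ratio 1.23, 95% interval 1.19 to 1.27), Wdr43 (132 to 159 CPM, log2 ratio 0.25) and Mybbp1a (146 to 171 CPM, 0.22). The lowest were those of Nop10 (-0.03), Bop1 (-0.01) and Bysl (0.01). In the Rit1-M90I library the lowest were Polr1b (29.1 to 20.9 CPM, ratio 0.719, 95% interval 0.673 to 0.769), Bysl (28.9 to 21.7 CPM, log2 ratio -0.30) and Rrp9 (36.0 to 28.7 CPM, -0.25), and the highest Wdr43 (132 to 141 CPM, 0.08), Pa2g4 (-0.04) and Ltv1 (-0.04). The makeup of the libraries moved with these values: with each library weighted to the control's population shares, the list's medians were 0.03 for the Lztr1 knockout library and -0.09 for the other mutant.

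By population, the list's median lay above 0 in 9 of the 10 populations for the Lztr1 knockout and in 2 of the 10 for Rit1-M90I. The knockout count was 8 with the stricter cell filter, with every barcode, with doublets kept and in cycling cells, 7 in non-cycling cells, and 7 of the 8 populations that Leiden clusters gave. The medians that turned were those of NK and innate lymphoid-like cells, given with that population, erythroid progenitor-like cells (-0.00611 with the stricter filter), basophil and mast-like cells (-0.03 in cycling cells) and, in non-cycling cells, stem and multipotent-like (-0.03) and monocyte lineage-like cells (-0.11). In stem and multipotent-like cells the median of the 38 genes was 71.7, 87.9 and 64.5 CPM, highest in the Lztr1 knockout and lowest in Rit1-M90I. Of the genes that passed the filter there, 30 of 36 lay above 0 in the Lztr1 knockout (53.1% of all genes) and 4 of 36 in Rit1-M90I (48.0%), with median log2 ratios of 0.21 and -0.14. In the Lztr1 knockout Polr1b (20.6 to 43.9 CPM, ratio 2.14, 95% interval 1.28 to 3.52) and Heatr1 (33.9 to 56.5 CPM, ratio 1.66, 95% interval 1.08 to 2.52) were more than 1.5-fold higher, as were 1.74% of all genes, and Tsr1 (-0.31) and Wdr12 (-0.19) were lowest. In Rit1-M90I Wdr75, a small subunit factor (36.8 to 20.2 CPM, ratio 0.550, 95% interval 0.352 to 0.840), and Bop1 (37.8 to 20.9 CPM, ratio 0.553, 95% interval 0.356 to 0.839) were more than 1.5-fold lower, as were 0.459% of all genes, and Ltv1 (0.19) and Noc4l (0.16) were highest.

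These stem and multipotent-like groups held 346, 82 and 300 cells, of which 34.97, 48.8 and 39.3% were cycling. Within non-cycling cells the median log2 ratios were -0.03 in the knockout library and -0.10 in Rit1-M90I, and within cycling cells 0.21 and -0.14. The Lztr1 knockout held 40 cycling cells of this population. Markers of neutrophil progenitors summed to 1743, 1216 and 1416 CPM in the 3 libraries and those of erythroid progenitors to 672, 745 and 800.1 CPM, against 1483 to 1675 CPM for the population's own 12 markers, with 1 of the 9 neutrophil markers and none of the 10 erythroid markers at 0 in all libraries. Plasma cell markers summed to 307, 268 and 701 CPM there and monocyte lineage markers to 127, 56.5 and 161 CPM, with none of either list's 7 and 9 markers at 0. In each of the 10 populations the sum of plasma cell markers was highest in Rit1-M90I, for example 526, 584 and 1197 CPM in basophil and mast-like and 181, 114 and 297 CPM in erythroid progenitor-like cells. The part of these markers in the genotype ratios was not tested.

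In erythroid progenitor-like cells, which had the deepest counts per cell, all 38 genes passed the filter. For the Lztr1 knockout 20 of 38 lay above 0 (45.4% of all genes), with a median of 0.00, from Wdr43 (0.23) and Ddx21 (0.18) to Nop10 (-0.12) and Pes1 (-0.20). For Rit1-M90I 4 of 38 lay above 0 (43.1%), with a median of -0.10, from Wdr43 (0.13) and Nop58 (0.02) to Nop16 (-0.27) and Bysl (-0.30). In that library the counting intervals of 20 of the 38 ratios lay below 1. This count was not made over all genes, so it cannot be read as particular to the list.

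In neutrophil progenitor-like cells 36 of 37 genes lay above 0 in the Lztr1 knockout, where 68.1% of all genes did, and the median was 0.15 against 0.07 over all genes. Heatr1 (35.4 to 51.2 CPM, 0.43) and Mybbp1a (131 to 176 CPM, 0.40) were highest, and Nop10 (0.01) and Nob1 (-0.05) lowest. In Rit1-M90I 16 of 37 lay above 0 (44.4%), with a median of -0.01, from Wdr43 (124 to 150.2 CPM, 0.25) and Ddx21 (0.25) to Utp20 (-0.22) and Polr1b (25.5 to 17.6 CPM, -0.36). Polr1b was thus the lowest of the filtered genes in Rit1-M90I over all kept cells, in neutrophil progenitor-like cells and, at -0.55, in hemoglobin-rich erythroblast-like cells.

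Hemoglobin-rich erythroblast-like cells were the population in which the list's median was below 0 in the Lztr1 knockout, at -0.20, with 9 of 36 genes above 0 (45.0% of all genes). In Rit1-M90I 7 of 36 lay above 0 (44.3%), with a median of -0.12. Noc4l was at 50.9, 33.7 and 34.4 CPM, lower in both mutants than in the control, and Nob1 (0.34) and Pes1 (0.26 in the knockout library, 0.56 in Rit1-M90I) lay at the other end. The population's own 9 hemoglobin-rich erythroblast markers summed to 7037, 10594 and 9793 CPM, higher in both mutants than in the control, with none at 0. Plasma cell markers summed to 636, 129 and 712 CPM, lowest in the Lztr1 knockout, with 2 of the 7 at 0, and neutrophil progenitor markers to 484, 282 and 852 CPM, with none of the 9 at 0. Their part in these ratios was not tested. In monocyte lineage-like cells 25 of 35 genes lay above 0 in the Lztr1 knockout (56.8% of all genes; median 0.05) and 4 of 35 in Rit1-M90I (37.2%; -0.16). In lymphoid progenitor-like cells 25 of 36 (53.2%; 0.13) and 9 of 36 (44.0%; -0.10) did, with Wdr75 highest in the Lztr1 knockout (27.3 to 44.97 CPM, 0.56).

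T cell-like and NK and innate lymphoid-like cells were the 2 populations in which the list's median ratio lay above 0 in both mutants. In T cell-like cells the list's median was 41.1, 56.3 and 44.1 CPM, with 26 of 35 genes above 0 in the Lztr1 knockout (50.1% of all genes) and 32 of 35 in Rit1-M90I (43.7%). In the Lztr1 knockout 9 of the 35 were 1.5-fold higher, led by Rrp1b (21.8 to 70.3 CPM, ratio 3.23, 95% interval 1.59 to 6.33), where 10.1% of all genes passed that fold in a group of 53 cells. Neutrophil progenitor markers summed to 283, 1801 and 974 CPM in these groups, with 1 of the 9 at 0, and basophil and mast markers to 77.1, 361 and 800.4 CPM, with none of the 9 at 0, so both were higher in both mutants. The 9 T cell markers summed to 4518, 3241 and 4054 CPM, lowest in the Lztr1 knockout, and the part of these markers in the ratios was not tested. In NK and innate lymphoid-like cells the list's median was 43.02, 48.5 and 45.3 CPM, with 23 of 34 (50.3%) and 28 of 34 (50.9%) above 0. There 5 of 34 genes were 1.5-fold higher and 4 lower in the Lztr1 knockout (11.7% and 11.6% of all genes), and 2 were higher in Rit1-M90I (6.55%), Wdr43 (54.6 to 146 CPM) and Noc4l (6.62 to 25.9 CPM). The median ratio was 0.28 in the Lztr1 knockout, and it was -0.04 with doublets kept and -0.03 with every barcode. The 9 markers of this population summed to 4090.4, 3148 and 3069.9 CPM and those of T cells to 2348, 1017 and 1345 CPM, both highest in the control, with none at 0. Neutrophil progenitor markers summed to 334, 929 and 814 CPM, lowest in the control, with 1 of the 9 at 0. The part of these markers in the ratios was not tested.

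In basophil and mast-like cells 15 of 23 genes lay above 0 in the Lztr1 knockout (52.2% of all genes; median 0.12) and 11 of 23 in Rit1-M90I (47.5%; -0.04), near the shares over all genes in the second. In plasmacytoid dendritic-like cells 22 of 33 (50.6%; 0.09) and 11 of 33 (45.3%; -0.03) did. In the Lztr1 knockout Pes1 (28.9 to 51.4 CPM) was 1.5-fold higher and Nop16 (37.7 to 19.1 CPM) 1.5-fold lower there (2.83% and 1.99% of all genes).

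**Figure D5:**
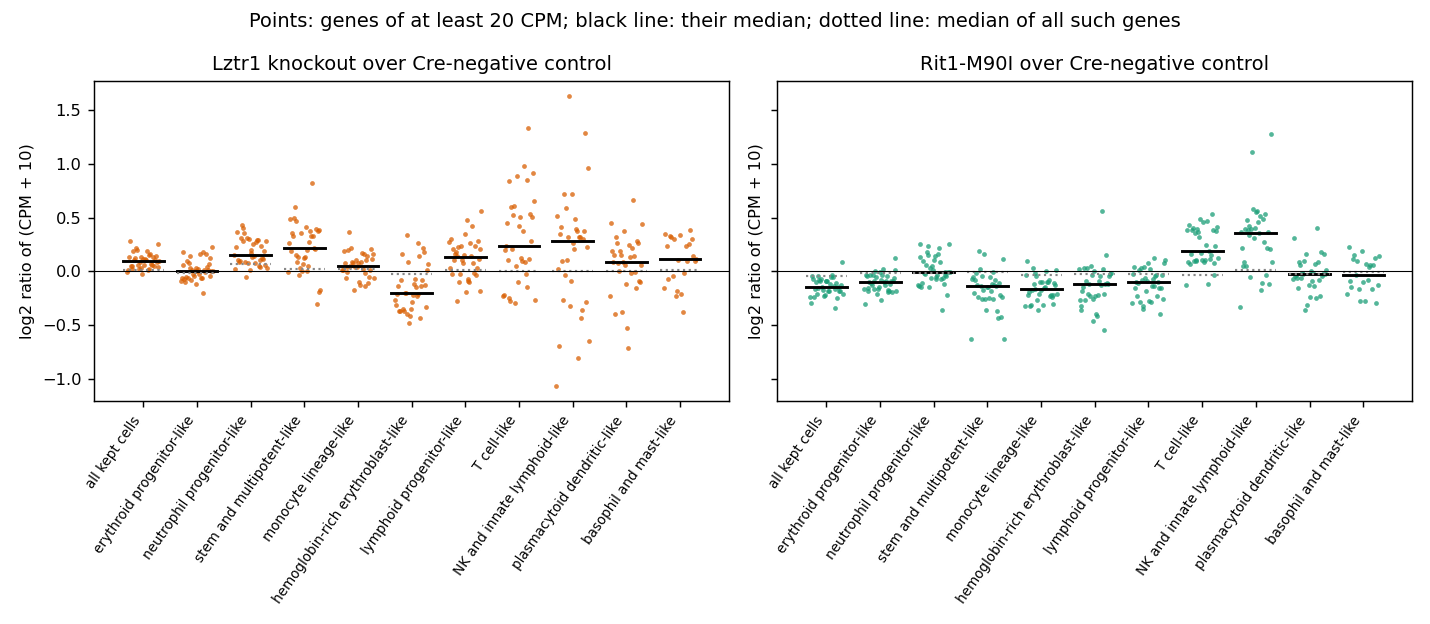
log2 ratio of (CPM + 10) of each mutant over the control (vertical axis) for the genes of the list with at least 20 CPM (points), in all kept cells and in each gated population (horizontal axis); the black line is their median and the dotted line the median of all genes of at least 20 CPM. In stem and multipotent-like cells the list's median is 0.21 in the Lztr1 knockout and -0.14 in the Rit1-M90I library, and in hemoglobin-rich erythroblast-like cells it is -0.20 and -0.12.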

How the data were processed

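Bone marrow cells of 3 libraries were sequenced by 10x 3' droplet counting, and the authors deposited a matrix of UMI counts per gene and cell for each library, made with Cell Ranger 6.1.1 on the mouse build mm10 per the submitters' processing notes, which also name Seurat 4.1.0 without its role. The sources do not say whether intronic reads were counted. Barcodes with at least 1000 UMIs, 500 genes and at most 10% mitochondrial UMIs were kept, which removed 11.2%, 19.6% and 15.2% of the control, Lztr1 knockout and Rit1-M90I barcodes. Doublets called by scrublet at an expected 0.8% per 1000 cells were then removed (3.47%, 3.47% and 4.75%). The kept cells held 62250764, 27617480 and 79554199 UMIs. No cell annotation was used.

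Cells were gated with 146 markers of 16 classes, at a score of at least 0.5 and a margin of at least 0.25 over the next class, and 81.1%, 81.1% and 80.5% of kept cells were gated. Counts were summed per library and population. CPM are a gene's counts per 1000000 UMIs of the sum. Populations and cycling states were tested with edgeR 4.0.16 in R 4.3.3 (filterByExpr, TMM, robust quasi-likelihood fit, library block, Benjamini-Hochberg adjustment over all genes tested). On simulated counts of 10467 genes in the neutrophil comparison, 100% of 188 genes changed 2-fold were recovered, with 1.05% false calls. The simulation had a common dispersion, no library effects beyond depth, and changes in neutrophil progenitor-like cells only. It therefore does not bear on how TMM moved the real comparison. Genotypes had 1 library each and were compared by ratios of CPM + 10 with exact 95% intervals and no test. Promoter windows came from RefSeq and gene positions from GENCODE vM21 on GRCm38. Scores used scanpy 1.11.5 under Python 3.11.15, and DESeq2 1.42.0 was an alternative. Genes were named by rule: the 2 of highest mean CPM in each role, the 2 highest and 2 lowest in each population, the 3 highest and 3 lowest in each genotype comparison, and the 5 non-members most correlated with the list; others were named after their values were seen. The members and lists were chosen with earlier results of these data known. One listed pathway gene of 117 and 1 marker of 147 were not matched. Populations under 50 cells in any library were left out.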

Additional observations from a re-analysis of the deposited data

Results flagged for a closer look

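In stem and multipotent-like cells the median log2 ratio of the list over the control was 0.21 in the Lztr1 knockout and -0.14 in the Rit1-M90I library, on opposite sides of 0. The difference was not tested, because each genotype is 1 library, and both ratios share the control library.

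The cycling difference was larger in erythroid progenitor-like than in basophil and mast-like cells for 10 of the 38 genes, by edgeR's interaction test. The largest of these 10 was that of Noc4l, at 1.41 on the log2 scale. Erythroid progenitor-like cells were also the deeper cells, and the interaction was not fitted on thinned cells. The part of depth in it was not tested.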

How the results depend on the processing

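Over the 10 populations 128 of 380 gene and population pairs were higher and 122 lower. Leaving out each library in turn gave 113 to 125 higher and 106 to 114 lower, Leiden clusters, in which stem and multipotent-like and NK and innate lymphoid-like cells could not be named, gave 133 and 106, and the fit without the library as a block 123 and 119. The block is the library from which the populations come. In the fit that gave 128 and 122, 20.2% to 40.9% of all genes were higher in a population and 17.7% to 35.0% lower. The totals alone therefore do not set the list apart from all genes. The count of 20 genes higher in cycling cells was 6 with thinned cells, 6 to 13 with each library left out, 14 with DESeq2 and 24 without the block. Of all 9159 genes 1970 were higher in the fit that gave 20, 1475 with DESeq2 and 2346 without the block. With thinned cells 1186 of 7587 were. Among named genes, Noc2l and Rrp9 in neutrophil progenitor-like cells turned to -0.038 and -0.036 without TMM scaling, and Polr1b in monocyte lineage-like cells turned to 0.046 with Leiden clusters. The cause of these changes was not tested.

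The Lztr1 knockout median over all kept cells (0.09) was 0.10 with the stricter cell filter, 0.11 with a pseudocount of 1 CPM, 0.050 in non-cycling and 0.049 in cycling cells, and 0.029 at the control's population shares. The Rit1-M90I median (-0.15) was -0.15 with every barcode, -0.17 with a pseudocount of 1 CPM, -0.15 in non-cycling and -0.16 in cycling cells, and -0.095 at the control's shares. Rit1-M90I populations with a median above 0 (2) were 5 with the stricter gate, 4 in non-cycling cells and 1 in cycling cells, and those of the Lztr1 knockout (9) were 7 to 9. The 2 cycling settings were chosen after seeing the data. Each genotype is 1 library, and the smallest groups held 51 and 53 cells.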
